A study of Saccharomyces cerevisiae with 18 samples.

Results

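The 31 genes described here act early in meiosis of the budding yeast Saccharomyces cerevisiae, from the decision to enter it through recombination to the first division. They were chosen by name, as the probe sets whose annotated symbol is one of IME1, IME2, IME4, UME6, RIM4, NDT80, SPO11, REC102, REC104, REC114, MEI4, MER1, HOP1, RED1, MEK1, REC8, PCH2, DMC1, MEI5, SAE3, HOP2, MND1, ZIP1, ZIP2, SPO16, SPO22, MSH4, MSH5, NDJ1, SPO13 and MAM1. Each was read by 1 probe set, so the group is 31 of the 5449 S. cerevisiae genes tested, which 5498 probe sets read.

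RNA came from BY4742, a haploid laboratory strain of mating type alpha, grown in YPD, a rich medium with glucose. Cultures in mid-exponential growth received nonylphenol, an alkylphenol left when some industrial surfactants break down, at 1 or 5 mg/L in ethanol, or the same volume of ethanol alone as control. They were collected after 120 or 180 min, and each of the 6 groups of dose and time had 3 single-colour Affymetrix arrays labelled as biological replicates. The series asked how transcription across the genome responds to both concentrations.

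Meiosis in budding yeast normally needs a diploid that carries both mating types and is starved of nitrogen and of fermentable carbon. The transcription activator Ime1 then joins Ume6, a DNA-binding protein that otherwise keeps early meiotic genes off through a promoter element named URS1. The early genes make programmed DNA breaks, pair and exchange homologous chromosomes and hold sister chromatids together. Ndt80 later turns on the middle genes for the divisions and spore formation. A haploid alpha cell in rich medium lacks the signals for this program.

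Values are log2 RMA signals, a microarray measure that is background corrected, scaled between arrays and summarised per probe set. A step of 1 is a doubling, and levels of different probe sets are not comparable with each other. The background was the percentile 95 of the means of 1746 probe sets for another yeast species, which stood at 1.86. Replicate arrays correlated at r = 0.994 to 0.999. All 5 alpha-specific genes were above background, with control means at 120 min of 11.58 for SAG1, 10.02 for STE3 and 12.24 for MF(ALPHA)1, and all 11 haploid-specific genes were above it too. So were all 7 genes specific to a cells, the other mating type, so being above background does not tell the cell types apart. In these controls the median was 11.58 for the alpha-specific and 3.89 for the a-specific genes.

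In controls at 120 min, 27 of the 31 meiotic genes lay above background, and MEI5, HOP2, SAE3 and MEK1 lay under it. Of all S. cerevisiae probe sets 98.3% lay above it there, so passing it does not set these genes apart. As a set the 31 genes were dim, with a median signal of 3.65 beside 7.95 for all probe sets. A mean of 4 or less was read for 20 of them and for 5.86% of all probe sets. At 5 mg/L the number above background was 29 at both times, since SAE3 and MEK1 had risen past it. The share of all probe sets was 99.2% at 120 min and 99% at 180 min. HOP2 and MEI5, whose products help the strand exchange protein Dmc1, stayed under background on every array of all 6 groups.

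**Figure D1:**
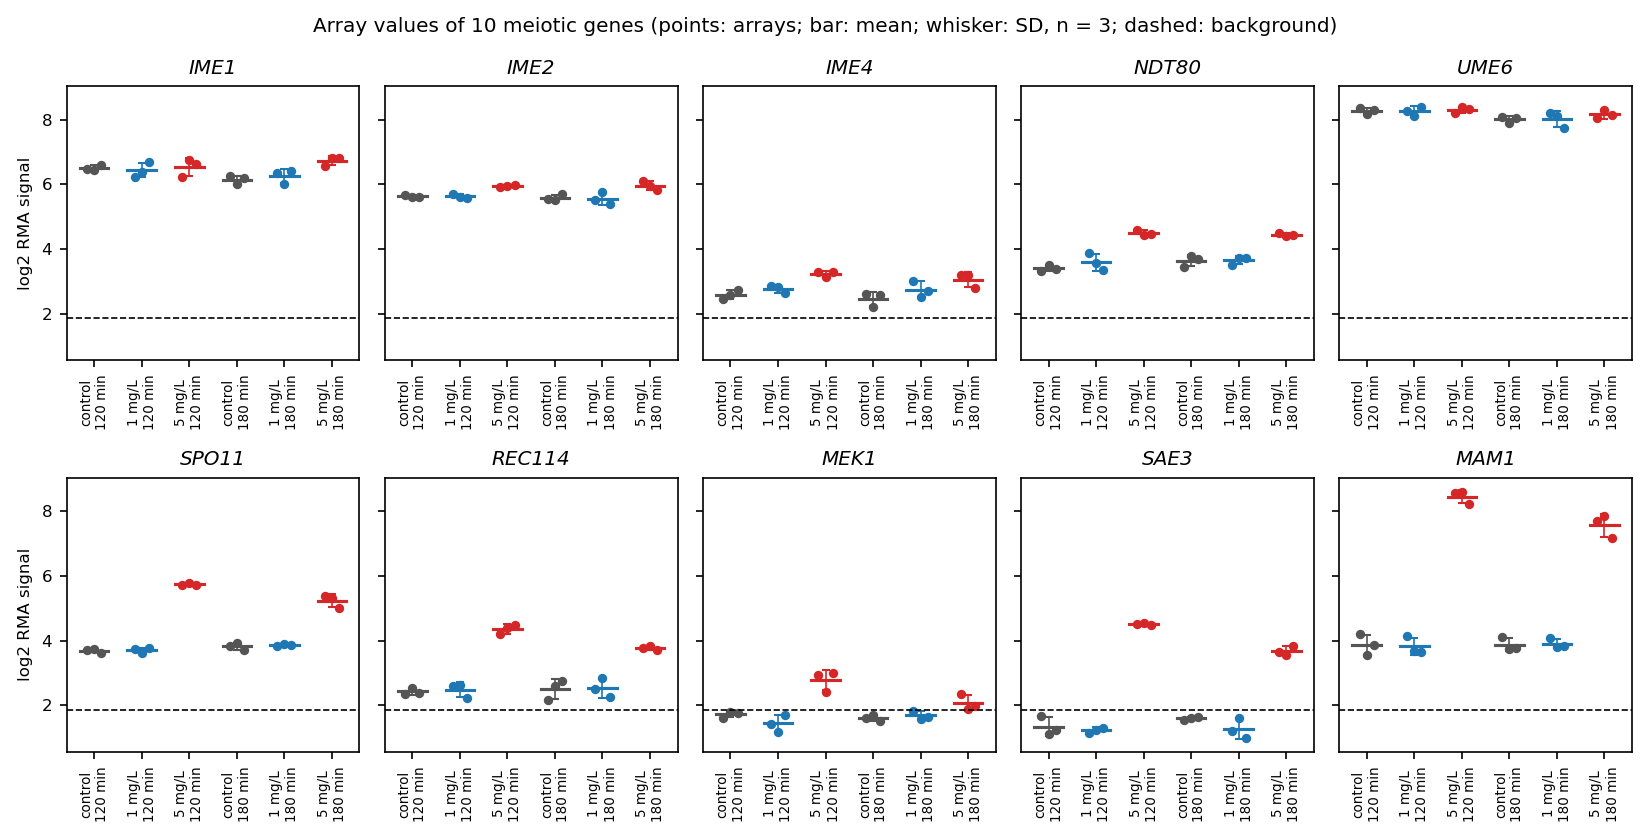
Log2 RMA signal (y axis) of 10 of the 31 genes on each array, by dose and time (x axis), with the group mean as a bar, the SD of 3 arrays as a whisker and the background of 1.86 as a dashed line. The 5 mg/L arrays of SPO11, REC114, SAE3, MAM1 and NDT80 sit above all control and 1 mg/L arrays of the same time, while UME6 stays near 8 in every group.

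At 5 mg/L and 120 min, 17 of the 31 genes were higher than in controls, 4 were lower and 10 did not pass the test. The test was a limma model over all 18 arrays with Benjamini-Hochberg adjustment across 5498 probe sets, and a call means an adjusted p under 0.05. Over all probe sets 25.4% were called higher and 32.7% lower, so the share of meiotic genes called higher exceeded that of all genes. Probe sets with a low control signal rose in general, however, where the signal says how brightly a probe set was read and not how much transcript there was. Of the 367 probe sets with a control mean between background and 5, 56.4% were called higher and 8.17% lower, and of the 19 meiotic genes in that range 12 were higher and 1 lower. The count of risers is thus close to that of other dim probe sets. The median change was log2 0.50 for these 19 genes and 0.37 for the 367 probe sets, and it was 0.34 for all 31 genes and -0.04 for all probe sets. Of the 31 genes, 6 were called with a fitted change of at least log2 1 (MAM1, SAE3, SPO11, REC114, NDT80 and MEK1), all of them rises. For MEK1, whose controls lay under background, the measured lower bound is smaller, at log2 0.85. Over all probe sets 3.51% rose and 0.182% fell by that much, and 21.8% of the dim ones rose.

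The split of calls also depended on the scaling between arrays. When the arrays were quantile normalized again over the S. cerevisiae probe sets, which removes a shared shift of dim genes, 9 were higher and 7 lower, beside 24.6% and 33.6% of all probe sets. On a scaling by the manufacturer's poly-A control transcripts, which shifted the median of all probe sets to log2 -0.83, 4 were higher and 10 lower, beside 1.73% and 77.8% of all probe sets. The 4 genes higher under every scaling were MAM1, SAE3, SPO11 and REC114. At 180 min the split was 17 higher and 2 lower as deposited. It was 9 and 5 with quantile normalization, beside 26.3% and 35% of all probe sets. On poly-A controls, where the median of all probe sets stood at log2 -0.28, it was 4 and 2, beside 3.18% and 6.82%. The mean of the poly-A controls varied among the control arrays at 180 min with an SD of 0.40, beside a difference of 0.24 between groups. That spread enters the test of every gene, and 16 of the 17 genes called higher as deposited kept their sign. The same 4 genes were the ones higher on all 3 scalings.

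**Figure D2:**
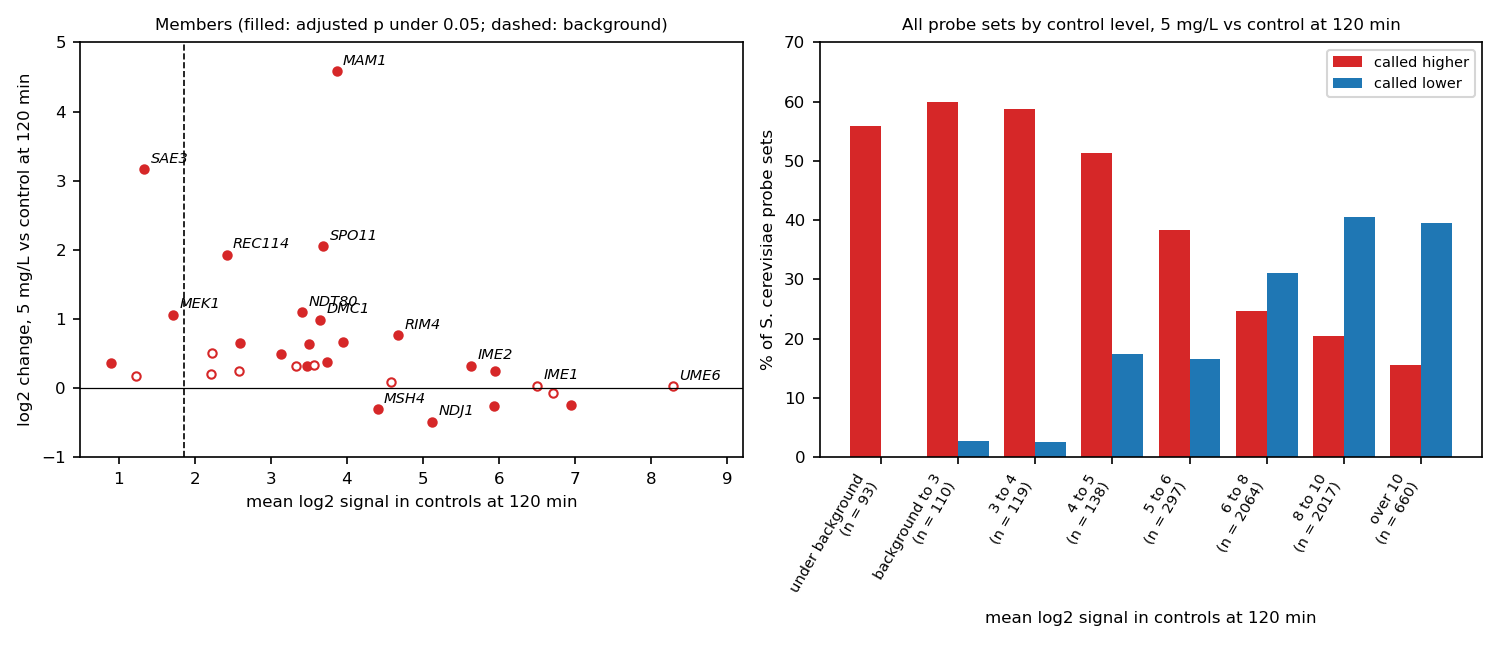
Left, mean control signal (log2, x axis) against the log2 change at 5 mg/L and 120 min (y axis) for the 31 genes, filled where the adjusted p was under 0.05. Right, the share (%) of all S. cerevisiae probe sets called higher or lower in each range of control signal; the share called higher runs from 60% between background and 3 to 15.6% over 10.

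The regulators of entry moved unevenly. IME1 encodes the activator that starts the program. Its control arrays at 120 min read 6.46, 6.43 and 6.61, and the 5 mg/L arrays read 6.23, 6.75 and 6.63, so the groups overlapped. The change was log2 0.03 (SE 0.14, 95% interval -0.25 to 0.32, adjusted p = 0.840, limma, n = 3 arrays per group). At 180 min the controls read 6.25, 6.01 and 6.19 and the 5 mg/L arrays 6.58, 6.81 and 6.83. Here all treated arrays lay above all controls and IME1 rose by log2 0.59 (SE 0.14, adjusted p = 0.00129, limma). Between the control groups IME1 had a value of log2 -0.35 from 120 to 180 min, which did not pass (adjusted p = 0.0682, limma). The test of the difference in effect between times did not pass either (log2 0.56, SE 0.19, adjusted p = 0.0604, limma).

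UME6, the partner and repressor, was read at 8.36, 8.18 and 8.31 in controls at 120 min and at 8.21, 8.40 and 8.32 at 5 mg/L. At 180 min its controls were 8.08, 7.89 and 8.06 and its 5 mg/L arrays 8.05, 8.32 and 8.15. The groups overlapped at both times, with changes of log2 0.03 (95% interval -0.20 to 0.26) and 0.16 (-0.07 to 0.40). The intervals leave room for changes of up to log2 0.40 in the UME6 transcript.

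IME2, a protein kinase that acts after Ime1, read 5.68, 5.61 and 5.61 in controls at 120 min and 5.91, 5.96 and 5.99 at 5 mg/L. At 180 min the controls read 5.53, 5.53 and 5.69 and the treated arrays 6.12, 5.94 and 5.83. The treated arrays lay above the controls at both times, and the rises were small, at log2 0.32 (SE 0.08, adjusted p = 0.00324) and 0.38 (SE 0.08, adjusted p = 0.000979, limma).

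NDT80, the activator of middle meiotic genes, was the regulator with the largest rise. Its controls at 120 min read 3.33, 3.51 and 3.39 and the 5 mg/L arrays 4.60, 4.45 and 4.48. At 180 min the controls read 3.45, 3.79 and 3.68 and the treated arrays 4.50, 4.41 and 4.42. No treated array overlapped a control. The rise was 2.14-fold at 120 min (log2 1.10, SE 0.11, adjusted p = 2.82e-07) and 1.75-fold at 180 min (log2 0.81, SE 0.11, adjusted p = 9.33e-06, limma). With quantile normalization the values were log2 0.66 and 0.51, both still called, and on the poly-A scaling 0.32 and 0.57, neither called.

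IME4, which encodes an RNA methyltransferase needed for entry, read 2.47, 2.57 and 2.74 in controls at 120 min and 3.29, 3.14 and 3.29 at 5 mg/L. At 180 min its controls read 2.61, 2.21 and 2.56 and the treated arrays 3.19, 3.18 and 2.78, again without overlap. The rises of log2 0.65 and 0.59 (SE 0.13 each) passed as deposited but fell to 0.06 and 0.19 with quantile normalization, where neither was called. RIM4, an RNA-binding protein that holds back translation of meiotic messages, rose by log2 0.77 (SE 0.11) at 120 min and 0.41 (SE 0.11) at 180 min, of which the earlier stayed called with quantile normalization at 0.48.

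Genes of double-strand break formation divided into a pair of strong risers and others with small or uncalled changes. SPO11 encodes the topoisomerase-like protein that cuts the DNA. Its control arrays read 3.71, 3.74 and 3.62 at 120 min, the 1 mg/L arrays 3.72, 3.63 and 3.77, and the 5 mg/L arrays 5.71, 5.78 and 5.73. At 180 min the control arrays read 3.83, 3.92 and 3.70, the 1 mg/L arrays 3.83, 3.88 and 3.87, and the 5 mg/L arrays 5.37, 5.32 and 5.00. The control and 1 mg/L arrays overlapped, and every 5 mg/L array stood more than 1 unit above them. SPO11 was 4.14-fold higher at 120 min (log2 2.05, SE 0.08, adjusted p = 1.06e-11) and 2.67-fold higher at 180 min (log2 1.41, SE 0.08, adjusted p = 3.69e-10, limma), and ranked 24th and 70th among the rises of all 5498 probe sets.

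REC114, a partner of Spo11 in making breaks, read 2.34, 2.54 and 2.39 in controls at 120 min and 4.20, 4.38 and 4.49 at 5 mg/L. At 180 min it read 2.15, 2.59 and 2.75 in controls and 3.78, 3.84 and 3.71 at 5 mg/L. The groups stood apart at both times, by 3.81-fold (log2 1.93, SE 0.15, adjusted p = 2.09e-08) and 2.43-fold (log2 1.28, SE 0.15, adjusted p = 2.24e-06, limma). MEI4, which works in a complex with Rec114, rose by log2 0.67 (SE 0.11) and 0.34 (SE 0.11) and was not called at either time with quantile normalization. At 180 min the MEI4 call was also lost without 5 mg/L array 3 (log2 0.26) or control array 3 (log2 0.25).

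The other break genes moved less. REC102, a core partner of Spo11, had values of log2 0.32 and 0.38 (SE 0.17) that did not pass (adjusted p = 0.113 and 0.0611, limma). REC104, its partner, had 0.09 and -0.14 (SE 0.14), also not called, and was called lower with quantile normalization at both times. MER1, which activates splicing of meiotic introns, had an uncalled 0.24 at 120 min and rose by 0.39 (SE 0.15) at 180 min. That MER1 call was lost with quantile normalization (0.04) and without 5 mg/L array 1 (0.29) or control array 2 (0.29) or 3 (0.41).

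Among genes of the chromosome axis, MEK1, the kinase that steers recombination to the homologous chromosome, was not above background in any control or 1 mg/L array. Its controls at 120 min read 1.61, 1.79 and 1.74, and the 5 mg/L arrays 2.92, 2.41 and 3.0. At 180 min the controls read 1.59, 1.69 and 1.5, and the 5 mg/L arrays 2.35, 1.89 and 1.97. Treated arrays lay above the controls, but only just above background at 180 min. Counting controls at no less than each array's own background, MEK1 was at least 1.80-fold higher at 120 min and at least 1.11-fold higher at 180 min. The limma test used the deposited values, with adjusted p = 1.69e-05 and 0.0124, and these p-values do not apply to the bounds. The call at 180 min was lost without 5 mg/L array 1 and with quantile normalization (log2 0.11).

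HOP1 and RED1 encode structural proteins of the axis. HOP1 rose by log2 0.32 (SE 0.10, adjusted p = 0.0156) at 120 min and had an uncalled 0.13 at 180 min. The HOP1 call was lost without 5 mg/L array 1 or control array 3 and turned to -0.13 with quantile normalization. RED1 had -0.07 at 120 min, not called, and rose by 0.26 (SE 0.09, adjusted p = 0.0191) at 180 min, a call lost without 5 mg/L array 2 or 3 or control array 2. REC8, the meiotic cohesin subunit, rose by 0.37 and 0.39 (SE 0.11) but was not called with quantile normalization (-0.01 and 0.16). PCH2, an ATPase that removes Hop1 from chromosomes, had 0.20 and -0.03 (SE 0.15), neither called.

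In the strand exchange group SAE3 stood apart. Its product forms a complex with Mei5 that helps load Dmc1, the meiotic recombinase, onto DNA. SAE3 controls read 1.66, 1.11 and 1.24 at 120 min and 1.55, 1.61 and 1.62 at 180 min. The 1 mg/L arrays read 1.14, 1.24 and 1.31, then 1.20, 1.61 and 0.99. At 5 mg/L SAE3 read 4.51, 4.54 and 4.48 at 120 min and 3.66, 3.54 and 3.84 at 180 min. Every control and 1 mg/L array was thus under background and every 5 mg/L array well above it. Against the background of the control arrays SAE3 was at least 5.97-fold higher at 120 min and at least 3.39-fold higher at 180 min. The limma test of the deposited values gave adjusted p = 1.80e-11 and 1.94e-09, which again do not apply to the bounds.

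MEI5, the partner of SAE3, passed the test at 120 min (adjusted p = 0.0302), yet its means of 0.90 in controls and 1.27 at 5 mg/L were both under background, so no fold is given. That call was lost without 5 mg/L array 1 or control array 2 or 3. DMC1 read 3.39, 3.83 and 3.73 in controls at 120 min and 4.70, 4.47 and 4.76 at 5 mg/L, without overlap. It rose 1.99-fold (log2 0.99, SE 0.15, adjusted p = 2.15e-05) and, at 180 min, 1.56-fold (log2 0.64, SE 0.15, adjusted p = 0.00113, limma), and it stayed called with quantile normalization at 0.56 and 0.34. MND1, which with Hop2 stimulates Dmc1, had values of 0.50 and 0.38 (SE 0.22) that did not pass.

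Genes of synapsis and crossover formation held 3 of the 4 members that fell at 120 min. MSH4 and MSH5 encode a protein pair that stabilises crossover intermediates. MSH4 controls read 4.48, 4.35 and 4.38 at 120 min and 4.50, 4.76 and 4.64 at 180 min. Its 5 mg/L arrays read 3.91, 4.18 and 4.21, then 3.73, 3.98 and 3.57, below all controls of the same time. MSH4 changed by log2 -0.31 (SE 0.11, adjusted p = 0.0204) and, at 180 min, by -0.88 (SE 0.11, adjusted p = 2.73e-06, limma), a 1.84-fold decrease. The earlier call was lost without 5 mg/L array 1 or control array 1. MSH5 changed by -0.25 (SE 0.10, adjusted p = 0.0324) at 120 min and had an uncalled -0.03 at 180 min. This MSH5 call was lost without 5 mg/L array 1 or 3 or control array 1 or 3.

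SPO16, SPO22 and ZIP2 encode proteins that work together to start synapsis, and ZIP1 encodes the protein that bridges the paired axes. SPO16 fell by 0.26 (SE 0.09) at 120 min and by 0.53 (SE 0.09, adjusted p = 6.06e-05, limma) at 180 min on the log2 scale. Its earlier call was lost without 5 mg/L array 2 or control array 3. SPO22 rose by 0.49 (SE 0.14) at 120 min and had 0.07 at 180 min, and with quantile normalization the earlier value became -0.05. ZIP1 rose by 0.25 and 0.23 (SE 0.08), not called with quantile normalization, and the call at 120 min was lost without 5 mg/L array 1 or control array 2. ZIP2 had 0.34 and -0.03 (SE 0.16), not called. At 120 min SPO16 and SPO22, which act together, were thus called in opposite directions.

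**Figure D3:**
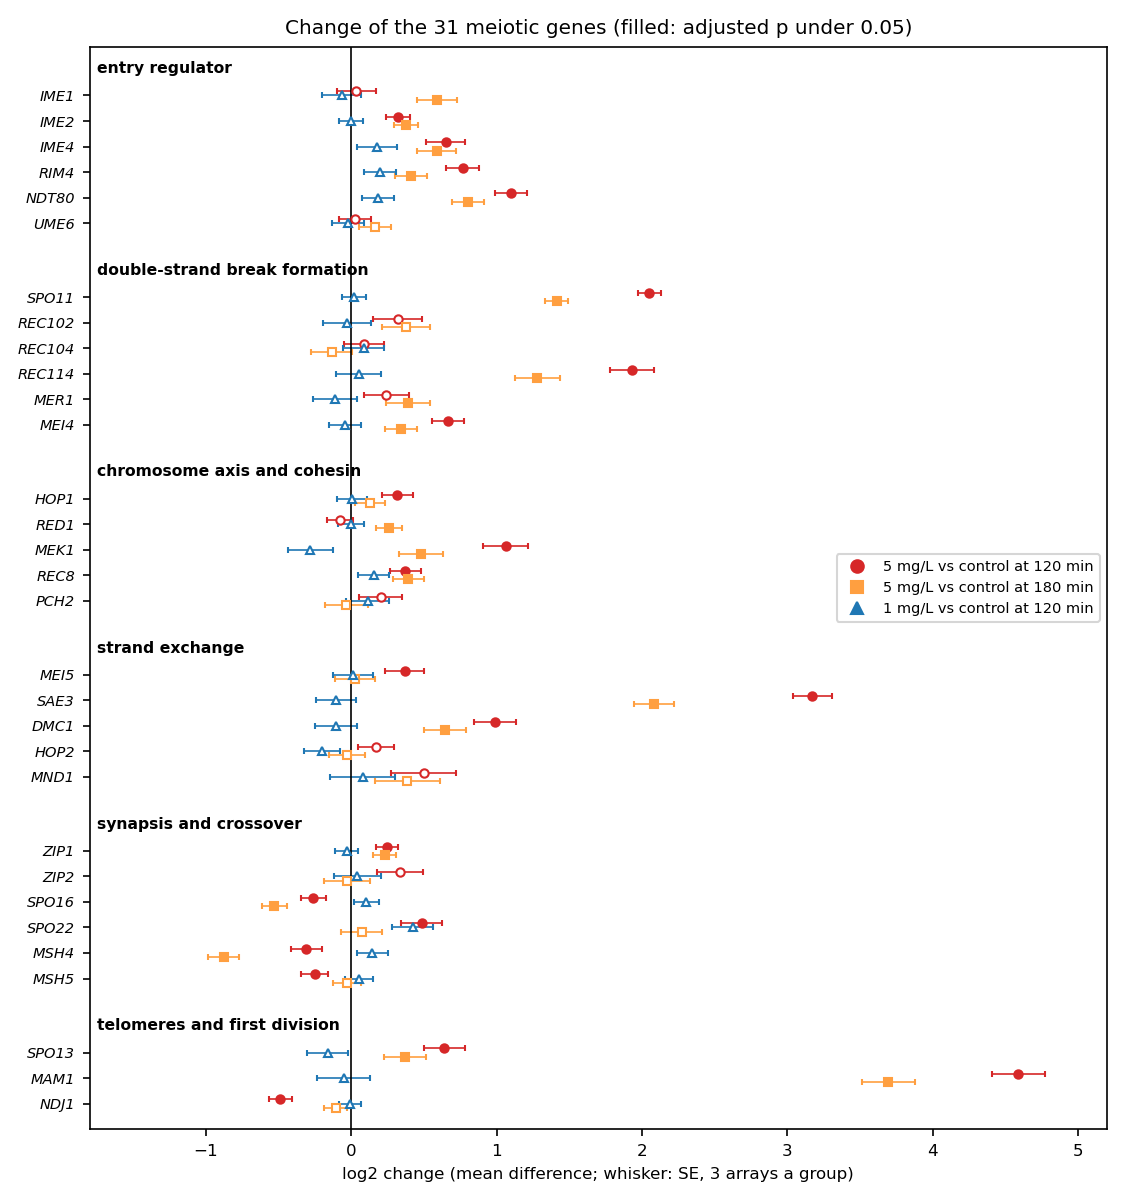
Log2 change (x axis, whisker: SE, 3 arrays a group) of each of the 31 genes, ordered by role, for 5 mg/L against control at 120 and 180 min and for 1 mg/L at 120 min; filled symbols have an adjusted p under 0.05. MAM1, SAE3, SPO11 and REC114 stand to the right of all others at 5 mg/L, MSH4, SPO16 and NDJ1 lie to the left of 0, and no 1 mg/L symbol is filled.

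Of the genes for telomeres and the first division, MAM1 had the largest rise of any S. cerevisiae probe set at both times. Mam1 belongs to the monopolin complex, which makes sister kinetochores attach to the same pole. Its control arrays read 4.19, 3.56 and 3.85 at 120 min and 4.10, 3.75 and 3.77 at 180 min. The 1 mg/L arrays read 4.13, 3.69 and 3.63, then 4.07, 3.81 and 3.83. At 5 mg/L it read 8.55, 8.59 and 8.22 at 120 min and 7.69, 7.85 and 7.16 at 180 min. The 1 mg/L arrays lay among the controls and the 5 mg/L arrays more than 3 units above both. The rise was 24.06-fold at 120 min (log2 4.59, SE 0.18, adjusted p = 1.11e-11) and 12.95-fold at 180 min (log2 3.69, SE 0.18, adjusted p = 7.55e-11, limma).

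SPO13, a regulator of sister chromatid cohesion in the first division, rose by log2 0.64 (SE 0.14) and 0.37 (SE 0.14). Neither rise was called with quantile normalization, and the call at 180 min was lost without 5 mg/L array 1 or 2 or control array 1 or 2. NDJ1, which ties telomeres to the nuclear envelope, fell by log2 0.49 (SE 0.08, adjusted p = 4.25e-05) at 120 min and had an uncalled -0.11 at 180 min. It was the single member lower at 120 min that kept its call without each array in turn.

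The times were compared over the members. The same 14 genes were higher at both: IME2, IME4, RIM4, NDT80, SPO11, REC114, MEI4, MEK1, REC8, SAE3, DMC1, ZIP1, SPO13 and MAM1. SPO16 and MSH4 were lower at both, and 7 genes were called at neither. How many of all probe sets were called at both times was not counted, so these numbers cannot be set against other genes. Over all probe sets 27.1% were called higher and 34.3% lower at 180 min, and 49.0% and 9.86% of the 365 with a control mean between background and 5, where 11 of 19 meiotic genes were higher and 1 lower.

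The difference in the 5 mg/L effect between times was tested directly and passed for 5 of the 31 genes, 4 of them toward a lower value at 180 min, against 8.53% of all probe sets toward a higher and 6.46% toward a lower value. The fitted difference for SAE3 was log2 -1.09 (SE 0.19, adjusted p = 0.00257), but its controls lay under background at both times, so the size of this difference is not a measured one. The effect was smaller at 180 min by log2 0.64 for SPO11 (SE 0.11, adjusted p = 0.00274) and by 0.89 for MAM1 (SE 0.26, adjusted p = 0.0306, limma). The MSH4 value became more negative by log2 0.57 (SE 0.15, adjusted p = 0.0208), and that of NDJ1 returned toward 0 by log2 0.38 (SE 0.11, adjusted p = 0.0292). SAE3 and SPO11 kept this call without each array in turn. MAM1, MSH4 and NDJ1 each lost it without 5 mg/L array 3 at 180 min and without control array 3 at 120 min, and 2 genes passed without either of these. The number was 3 without control array 2 at 180 min or 5 mg/L array 1 at 120 min, and 8 without 5 mg/L array 1 at 180 min. On the poly-A scaling limma called 0 of the 31. REC114 missed the threshold (log2 -0.65, SE 0.22, adjusted p = 0.0524).

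At 1 mg/L limma called 0 of the 31 genes at 120 min and 0 at 180 min. Over all probe sets 0.455% and 0.109% were called in either direction. An unadjusted p under 0.05 was held by 1 and 2 of the 31 genes, beside 238 and 198 of all 5498 probe sets. The values ran from log2 -0.28 to 0.42 at 120 min and from -0.33 to 0.27 at 180 min, and the 95% intervals of the 31 genes reached no further than -0.63 and 0.72. For the genes that rose most at 5 mg/L, the 1 mg/L values at 120 min were -0.05 for MAM1 (95% interval -0.44 to 0.33), 0.02 for SPO11 (-0.15 to 0.19) and 0.05 for REC114 (-0.27 to 0.38). With array weights MEK1 (log2 -0.48) was called lower at 120 min and SAE3 (log2 -0.54) at 180 min, both under background in each group compared. With these weights 1.78% and 0.655% of all probe sets were called lower.

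SPO22 had the largest 1 mg/L value, log2 0.42 at 120 min (unadjusted p = 0.00805, adjusted p = 0.517, limma). Its 1 mg/L arrays there read 4.03, 3.29 and 3.36 beside controls of 3.24, 3.23 and 2.94, so 1 array lay far above the other 2. The difference in the 1 mg/L effect between times was called by limma for 0 of the 31 genes and 0% of all probe sets. An unadjusted p under 0.05 was held by 1 of the 31, SPO22 at log2 -0.76. How many of all probe sets held such an unadjusted p is not given here. SPO22 was also the 1 member called between the control groups, higher at 180 min by log2 0.40 (SE 0.14, adjusted p = 0.0499, limma), where 23.2% of all probe sets were called, and that call was lost without any 1 of the control arrays except array 1 at 120 min. Direct comparison of the doses gave 16 genes higher and 4 lower at 5 than at 1 mg/L at 120 min, and 17 and 2 at 180 min, against 24.3% and 33.1%, then 26.7% and 32.7% of all probe sets. This comparison shares its 5 mg/L arrays with the one against control, and MAM1 stood at log2 4.64 and 3.66.

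**Figure D4:**
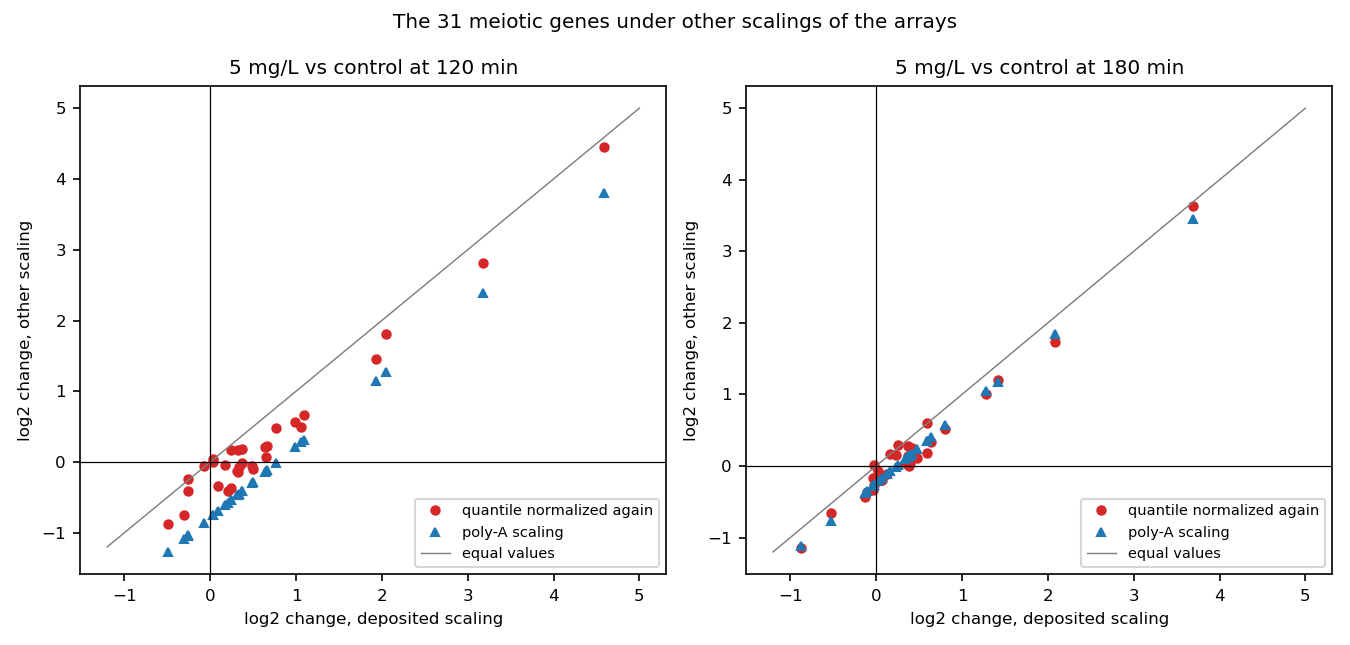
Log2 change at 5 mg/L against control of the 31 genes on the deposited scaling (x axis) and on each of the other scalings (y axis), at 120 min (left) and 180 min (right), with equal values on the grey line. MAM1, SAE3, SPO11 and REC114 stay above 0 on every scaling, while many genes with small rises fall to or under 0 at 120 min.

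Other genes of meiosis were read from lists of related function. Of 24 further genes of recombination and synapsis, most of them also used in mitotic repair, 3 were higher and 8 lower at 5 mg/L and 120 min, with a median of log2 -0.10. All probe sets had 25.4% higher and 32.7% lower in that comparison. The recombination helper RDH54 rose by 0.55 (SE 0.05) and the mismatch repair gene MLH3 by 0.66 (SE 0.06), while SKI8 changed by -0.41 and CST9 by -0.35. Of 31 further genes upstream of or beside Ime1 and Ume6, 3 were higher and 7 lower, with a median of -0.05. The same shares of all probe sets apply to this list. The 4 with the smallest p at 120 min were lower: SSN3 (-0.31), RIM101 (-0.22), RIM13 (-0.34) and ISW2 (-0.25). At 180 min SSN3 was lower (-0.21), RIM101 (-0.02), RIM13 (-0.15) and ISW2 (-0.07) were not called, and the smallest p belonged to a rise, that of SOK2 (0.72, SE 0.09, adjusted p = 3.88e-06, limma), named after its value was seen. RME1, the repressor that keeps IME1 off in haploids, had -0.08 at 120 min and -0.11 at 180 min (SE 0.05), neither called.

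The 18 further genes of the divisions and their control split into 7 higher and 6 lower at 120 min, with a median of log2 0.01. Beside this list and the next stand 25.4% higher and 32.7% lower over all probe sets. The meiotic kinase gene SPS1 rose by 1.34 (SE 0.12), SPO12 by 0.43 and SPO1 by 0.60, and SGO1, a guardian of centromeric cohesion also used in mitosis, changed by -0.66. Of 32 middle sporulation genes, which also belong to spore formation, 16 were higher and 4 lower, with a median of 0.31. Among all probe sets with a control signal between background and 5, 56.4% were higher and the median was 0.37. The list also holds genes outside that range, such as SPR6 (7.89) above it and OSW1 (1.47) under background. The list and that range are thus not matched on level, and no comparison at equal signal was made. SPR3 rose by log2 3.36 (SE 0.14), SPS100 by 2.66 (SE 0.12) and LDS2 by 1.55, and SPO19 started under background at 1.80 and read 4.66. At 180 min these 4 lists had 4, 6, 5 and 12 genes higher and 6, 7, 5 and 4 lower, beside 27.1% and 34.3% of all probe sets.

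Markers of yeast cell types, both of a cells and of the labelled alpha haploid, moved at 5 mg/L as well. Of 7 a-specific genes, 6 rose at 120 min, among them AGA2 (log2 2.97), MFA2 (2.49), BAR1 (1.93) and MFA1 (1.20). Of all probe sets 25.4% rose, and 56.4% of those with a control mean between background and 5. The summed linear signal of the a-specific genes was 246 to 278 per array at 5 mg/L beside 113.5 to 121.3 in controls. At 180 min it was 224 to 251 beside 107 to 112. The 5 alpha-specific genes summed to 13180 to 14020 at 5 mg/L and 13410 to 14080 in controls at 120 min, with STE3 at log2 -0.54, MF(ALPHA)2 at -0.43 and AFB1 at 0.55, all called. At 180 min they summed to 14850 to 15630 at 5 mg/L and 12450 to 13360 in controls, with AFB1 (log2 0.99), MF(ALPHA)1 (0.37) and SAG1 (0.26) higher and STE3 (-0.45) and MF(ALPHA)2 (-0.41) lower. Of 11 haploid-specific genes, which diploids with both mating types keep off, 5 were lower and 0 higher by limma at 120 min. An unadjusted p under 0.05 was held by 5, beside 3411 of all 5498 probe sets, with FAR1 at -0.55 and HO at -0.59. Over all probe sets 32.7% were lower, and 40.5% of those with a control mean of 8 to 10, where FAR1 (9.55) and HO (9.47) lay. The haploid-specific genes summed to 4077 to 4345 at 5 mg/L beside 5003 to 5207 in controls. At 180 min 4 were lower and 1, STE12 (log2 0.23), was higher, beside 34.3% and 27.1% of all probe sets. Their sum was then 4298 to 4326 beside 4818 to 4959. RNA from a whole culture cannot tell a change in every cell from a change in a few cells. The part of these markers in the meiotic changes was not tested.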

How the data were processed

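The deposited values were log2 RMA signals per probe set, and the submitters' processing notes name RMA, affy and limma without versions. The log2 base was read from the range of the deposited values, 0.41 to 13.74, since no label gives it. Biotin-labelled RNA was made from total RNA with a kit that primes at the 3' end, per the labels' protocols. The table held 10928 probe sets; 5498 were matched to S. cerevisiae genes through the platform annotation and a RefSeq gene table.

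A group-means model was fitted in R 4.3.3 by limma 3.58.1 with its empirical Bayes step to 18 arrays in 6 groups, with 1 pooled spread per gene, for 9 comparisons. Standard errors and intervals come from that fit. The number of arrays limits the precision. Each p-value sets a difference between groups against the spread of replicate arrays, pooled over the 6 groups, so it also rests on arrays outside the comparison. A fold from a control under background was computed against each array's own background and is a lower bound, which was not itself tested. The steps were tested on simulated data with independent noise and 50 changed genes at each size. They recovered 38% of changes of log2 0.25, 92% of 0.5, 96% of 1 and 100% of 2. The simulated data held far fewer changed genes than the measured data and no shared shift of dim probe sets, so they do not test these settings.

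All members are named. Array values are given for members called with a log2 change of at least 1 at 5 mg/L, for IME1, IME2, IME4, UME6 and NDT80, and, chosen after their values were seen, for DMC1, MSH4 and SPO22. Up to 4 called genes with the smallest p are named per list, and SAG1, MF(ALPHA)1, RME1 and SOK2 were added after their values were seen. The members and lists were chosen with earlier results of these data known. Some genes of the lists are not reported here. No promoter or protein sequence was used here.

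Deviations of arrays with the same replicate number correlated at r = -0.30 to 0.52, over 0.1 for 8 of 18 pairs. Between control and 1 mg/L at 120 min, all 3 pairs were over 0.1 (0.25, 0.41 and 0.37), and a block changed no member's call there. Alternatives were other variance settings, array weights, scalings, filters, array subsets and a replicate block.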

Additional observations from a re-analysis of the deposited data

Results flagged for a closer look

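The effect of 5 mg/L against control differed between 180 and 120 min for 5 of the 31 genes by the limma test of the difference itself, with log2 values, 180 minus 120 min, of -1.09 for SAE3, -0.64 for SPO11, -0.57 for MSH4, -0.89 for MAM1 and 0.38 for NDJ1. SAE3 stood at log2 3.17 and 2.08 against control at the 2 times, with controls under background at both, so the sizes of both effects are not known. SPO11 stood at 2.05 and 1.41, MSH4 at -0.31 and -0.88, MAM1 at 4.59 and 3.69, and NDJ1 at -0.49 and -0.11. The sign was the same at both times for each of the 5. The number of genes called ranged from 2 to 8 when 1 array was left out. Groups of 3 arrays were too small to tell a deviating array from ordinary spread.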

How the results depend on the processing

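Of the 17 genes higher at 5 mg/L and 120 min, 14 kept the call without each array in turn and 9 under every setting except the poly-A scaling, and at 180 min 12 and 8 of 17 did. The number called ranged from 17 to 21 (21 with all arrays) at 120 min and from 16 to 18 (19) at 180 min when 1 array was left out, from 18 to 23 (20) and 15 to 20 (19) for 5 against 1 mg/L, from 2 to 8 (5) for the difference between times, from 0 to 1 (1) between controls, and stayed at 0 for 1 mg/L. Over all probe sets it ranged from 2842 to 3035 at 120 min and from 3007 to 3189 at 180 min. For 5 against 1 mg/L it ran from 2839 to 3096 and from 2880 to 3128. The difference between times had 403 to 1160 and the controls 646 to 1149, so these totals moved with the arrays left out too. With the replicate block 21 genes were called at 120 min, 19 at 180 min and 0 between controls, and the block changed no call against control. Array weights gave 1 call at 1 mg/L at each time and 1 for the difference between these, 15 for the 5 mg/L difference between times and 10 between controls. The compared arrays alone gave 8 and 8 for the last pair, and trend with robust variance gave 0 between controls. Array weights also raised the calls over all probe sets, to 33% higher and 39.4% lower for 5 mg/L against control at 120 min. For the difference between times and between controls, counts over all probe sets under these settings are not given here. Poly-A scaling gave 6 calls at 180 min, 5 for 5 against 1 mg/L at 180 min, 0 for the difference between times and 0 between controls. Quantile normalization turned the sign at 120 min of REC104 (-0.33), MER1 (-0.37), HOP1 (-0.13), REC8 (-0.011), PCH2 (-0.41) and SPO22 (-0.050), and, called on neither scaling, of REC102 (-0.13), HOP2 (-0.041), MND1 (-0.098) and ZIP2 (-0.065), with 5 such uncalled turns at 180 min. Poly-A scaling subtracts 1 value per comparison from every gene, so the deposited value alone sets which genes turn. It turned IME1 (-0.75), IME2 (-0.46), IME4 (-0.13), RIM4 (-0.016), UME6 (-0.75), REC104 (-0.69), MEI4 (-0.11), HOP1 (-0.46), REC8 (-0.41), PCH2 (-0.58), MEI5 (-0.42), HOP2 (-0.61), ZIP1 (-0.54), SPO22 (-0.30), SPO13 (-0.14) and, uncalled on both scalings, REC102 (-0.46), MER1 (-0.54), MND1 (-0.28) and ZIP2 (-0.45) at 120 min. At 180 min it turned ZIP1 (-0.0087) and the uncalled UME6 (-0.075), HOP1 (-0.11), MEI5 (-0.21) and SPO22 (-0.17). The poly-A controls themselves differed by log2 0.78 at 120 min and 0.24 at 180 min on the deposited scale, and the cause was not tested. Signals near background limit MEK1, MEI5, SAE3 and HOP2.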

Other observations

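Genes next to the 31 on the chromosome, in the order of the R64 assembly, were read as a check on position, chosen after seeing the data. Of 53 neighbours with a probe set that are no members, 15 were higher and 20 lower at 5 mg/L and 120 min, beside 25.4% and 32.7% of all probe sets, with a median of log2 -0.05, and 1 changed by at least log2 1. That one was AGA2, an a-specific gene beside HOP2, which rose from 2.15 to 5.12 while HOP2 stayed under background. The neighbours of MAM1, the nuclear pore genes NUP157 and GLE2, had values of -0.35 and 0.27 at 120 min beside 4.59 for MAM1. The neighbours of SAE3, IRE1 and LAM4, had -0.20 and 0.22. Beside SPO11, NPR3 had an uncalled 0.06 and AIM17 rose by 0.71 at 120 min, and beside REC114, JLP2 had an uncalled -0.15 and ERG29 rose by 0.43. SPO22 and HOP1 are next to each other and both rose at 120 min, by 0.49 and 0.32, while neither was called at 180 min. No gene of the 31 overlapped a neighbouring protein-coding gene in that assembly.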
